A study of Mus musculus with 6 samples.

Results

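The genes described here are 10 adaptors and scaffolds of the Hippo pathway: the Ajuba LIM genes Ajuba, Limd1 and Wtip, the angiomotin genes Amot, Amotl1 and Amotl2, the upstream scaffolds Nf2, Sav1 and Wwc1, and the TEAD cofactor Vgll4. They were matched by symbol, and all 10 were found among the 55421 genes of the count table. The 10 genes were selected on earlier results of the same contrast of Yap cKO with control retinas, so their differences between the groups are given below as a description, with no test read from them.

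Whole retinas of 2-month-old mice were profiled by strand-specific, poly(A)-selected RNA-seq, with 3 control and 3 Yap cKO retinas. Control animals were Yap flox/flox, carrying Yap alleles flanked by loxP sites and no Cre. Yap cKO animals were Yap flox/flox;RaxCreERT2, in which a tamoxifen-dependent Cre recombinase is driven by the Rax gene. Both groups received 4-hydroxytamoxifen (4-OHT) at postnatal days 10 and 14, so the injections were shared by the controls. According to the study's description of the line, Cre is active in Müller glia, the radial support cells of the retina, and in the non-pigmented epithelium of the ciliary body, so most cells of a dissected retina, the rods among them, lay outside the deletion. The assigned read totals were 24261799, 26937920 and 28641877 for controls YR612, YR613 and YR615, and 25972334, 35067068 and 26170371 for Yap cKO retinas YR711, YR713 and YR714. Read from Xist and Ddx3y, control YR615 and Yap cKO YR713 and YR714 were female and the other retinas male. Levels are given as TPM, read counts divided by exonic length and scaled to the same sum in every library, which can be compared between genes. The values of the 3 retinas of a group are always listed in the order just given.

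In the Hippo pathway, the kinases STK3 and STK4 with their scaffold SAV1 activate LATS1 and LATS2, which phosphorylate YAP and its paralogue TAZ and keep them out of the nucleus. Unphosphorylated YAP enters the nucleus and switches on target genes together with the TEAD transcription factors. Adaptors at cell junctions set how active the kinases are: Ajuba LIM proteins bind and restrain LATS, angiomotins bind YAP itself and hold it at junctions and actin filaments, and NF2 (merlin) with WWC1 (KIBRA) brings LATS to the membrane. YAP is known in the retina for its expression in Müller glia.

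Yap1, the deleted gene (chromosome 9, 7931999 to 8004596, GRCm38), was measured at 9.48, 9.52 and 9.83 TPM in the controls and at 3.99, 3.76 and 3.94 TPM in the Yap cKO retinas. The groups did not overlap, and all 3 Yap cKO retinas kept a residual level. Its log2 fold change was -1.36 (SE 0.093), with an adjusted p of 0.000282 by the quasi-likelihood test of edgeR after Benjamini-Hochberg adjustment. In whole-retina libraries, fewer cells of a type and less RNA per cell cannot be told apart, and this holds for each difference below.

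Ajuba stood out among the 10 genes (chromosome 14, 54567472 to 54577558, minus strand, ENSMUSG00000022178). It codes for the LIM-domain protein that gives the family its name, a scaffold that shuttles between junctions and nucleus. Its level was 7.61, 8.12 and 7.21 TPM in the controls, against 2.40, 3.06 and 2.69 TPM in the Yap cKO retinas. The lowest control value was thus far above the highest Yap cKO value. The means were 7.65 ± 0.459 TPM (SD, n = 3) and 2.72 ± 0.327 TPM (SD, n = 3), and the control mean was 2.81-fold the Yap cKO mean. The reads behind these levels were few, 183, 203 and 202 in the controls and 56, 97 and 67 in the Yap cKO retinas. The difference on the log2 scale was -1.54 (SE 0.14), and it lay between -1.63 and -1.46 when each retina was left out in turn. Of the 16575 genes that passed the low-count filter, 0.404% had a lower log2 fold change.

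Limd1, coding for a second family member known to bind LATS and to take part in microRNA silencing, gave another picture (chromosome 9, 123478706 to 123521552, plus strand, ENSMUSG00000025239). It was measured at 12.3, 12.1 and 12.1 TPM in the controls and at 12.98, 12.1 and 10.4 TPM in the Yap cKO retinas. The Yap cKO retinas lay on both sides of the control values, which differed little among themselves. The log2 fold change was -0.10 (SE 0.10), and its range with each retina left out was -0.16 to -0.03.

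Wtip, the third member, codes for a protein first described as a partner of the Wilms tumour protein WT1 (chromosome 7, 34109543 to 34133268, minus strand, ENSMUSG00000036459). Its level was 10.2, 8.57 and 8.41 TPM in the controls and 5.65, 6.32 and 6.14 TPM in the Yap cKO retinas. The groups did not overlap, and control YR612 was the highest retina. The means were 9.07 ± 1.01 and 6.04 ± 0.346 TPM (SD, n = 3 each), a ratio of 1.503, and the log2 fold change was -0.64 (SE 0.15). With a correction for gene length it was -0.55, and with each retina left out it ranged from -0.70 to -0.53.

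**Figure D1:**
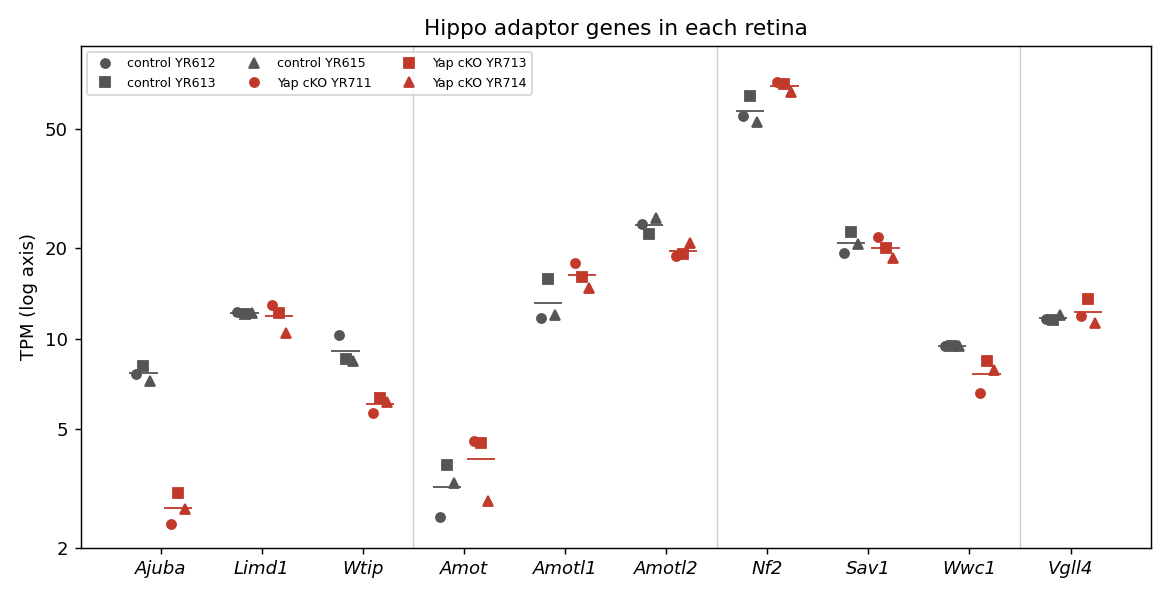
Level of each of the 10 genes in each retina, in TPM on a log axis; grey symbols are the 3 control and red symbols the 3 Yap cKO retinas, horizontal lines are group means, and vertical lines divide the families. The Ajuba symbols of the groups lie farthest apart, 7.21 to 8.12 TPM in the controls and 2.40 to 3.06 TPM in the Yap cKO retinas, while those of Limd1, Sav1 and Vgll4 intermingle.

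The Ajuba LIM genes together made up 30.1, 28.8 and 27.7 TPM in the controls and 21.0, 21.5 and 19.3 TPM in the Yap cKO retinas. The summed level was therefore lower in every Yap cKO retina than in any control. Within that sum Ajuba went from 26.5 ± 1.55% in the controls to 13.2 ± 1.54% in the Yap cKO retinas (SD, n = 3 each), while Limd1 went from 42.1 ± 1.499% to 57.4 ± 3.88%. A share depends on the other genes in the sum, and the level of Limd1 itself overlapped between the groups. The share of Wtip was 31.4 ± 2.30% and 29.4 ± 2.51%, a difference within the spread between retinas.

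The TEAD factors through which YAP acts recognise a short core, CATTCC on one strand and GGAATG on the other, which was searched in the promoters of the 10 genes. Of the 5 genes whose values did not overlap between the groups, Ajuba, Wtip and Amotl2 held a match and are shown for that reason, while Wwc1 and Nf2 held none. The sequences are from the RefSeq promoter table of build GRCm38.p6, read 5′ to 3′ on the strand of the gene, with matches to the core in capitals. For Ajuba (chr14:54577662-54577911, minus strand) and Wtip (chr7:34133269-34133518, minus strand) they are the 250 bases before the RefSeq start. For Amotl2 (chr9:102717727-102717756, plus strand) a stretch of 30 bases around its match is shown, which lies inside the span of the gene as counted.
Ajuba: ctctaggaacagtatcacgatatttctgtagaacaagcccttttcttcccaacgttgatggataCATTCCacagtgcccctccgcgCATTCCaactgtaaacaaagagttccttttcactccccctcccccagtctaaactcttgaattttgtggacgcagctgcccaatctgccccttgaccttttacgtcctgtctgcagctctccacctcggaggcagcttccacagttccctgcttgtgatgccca
Wtip: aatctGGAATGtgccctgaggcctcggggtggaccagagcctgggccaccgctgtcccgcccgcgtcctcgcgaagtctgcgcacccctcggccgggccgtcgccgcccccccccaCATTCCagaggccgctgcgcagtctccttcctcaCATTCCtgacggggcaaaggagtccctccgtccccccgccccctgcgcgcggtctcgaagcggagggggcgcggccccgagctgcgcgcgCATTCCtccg
Amotl2: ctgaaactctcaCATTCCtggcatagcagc

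Promoter windows of 300 bases, 250 before and 50 after the start, were found for 9 of the 10 genes, with 2 windows for Nf2 and none for Limd1. Ajuba held 2 matches to the core, beginning 186 and 164 bases before the start, and Wtip held 4, beginning 245, 134, 100 and 10 bases before it. Amotl2, Sav1 and Vgll4 held 1 match each, and no match to these letters was in the windows of Amot, Amotl1, Nf2 and Wwc1. The windows of Amot, Amotl1, Amotl2 and Vgll4, and 1 of those of Nf2, lie wholly inside the span of the gene as counted. For these genes, the bases before the first counted exon were not searched in those windows. Of all 32851 promoter windows of the table, 14.7% held at least 1 match, 1.36% at least 2 and 0.0183% at least 4. The AP-1 core TGANTCA, which reads the same on both strands and is present in 7.81% of all windows, was in none of the windows of the 9 genes. The matches are a description of letters, and binding was not measured.

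**Figure D2:**
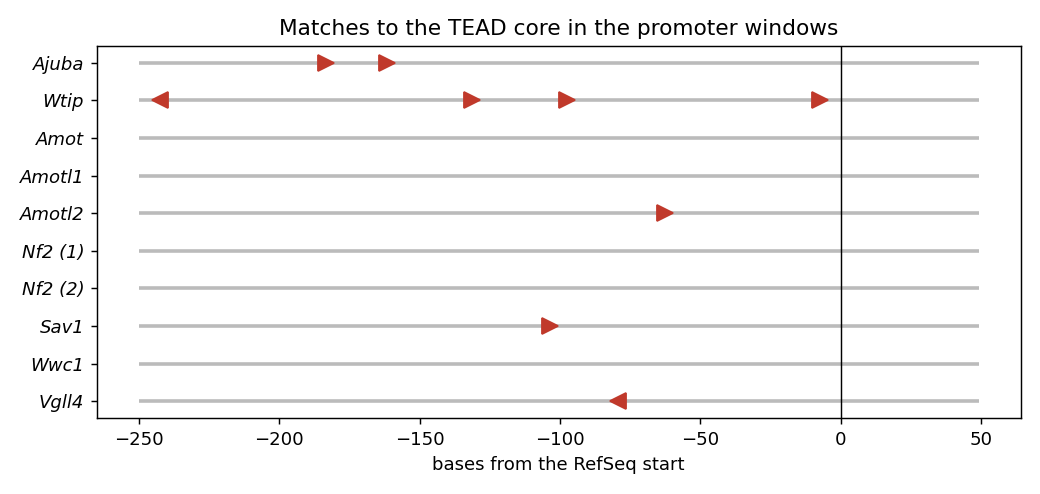
Position of matches to the TEAD core in the promoter window of each gene, in bases from the RefSeq start (0 on the axis); grey lines are the windows, right-pointing triangles mark CATTCC and left-pointing triangles GGAATG on the strand of the gene, and Nf2 has 2 windows. Wtip holds 4 matches and Ajuba 2, and the windows of Amot, Amotl1, Nf2 and Wwc1 hold none. Some windows, among them those of Amot, Amotl1, Amotl2 and Vgll4, lie inside the span of the gene as counted.

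Among the angiomotin genes, Amotl2 was the most abundant and is itself a known YAP target gene (chromosome 9, 102716672 to 102733418, plus strand, ENSMUSG00000032531). It was measured at 24.1, 22.4 and 25.2 TPM in the controls and at 18.8, 19.1 and 20.8 TPM in the Yap cKO retinas. The groups did not overlap, but the gap between them, from 20.8 to 22.4 TPM, was smaller than the range of the controls. On the log2 scale the fold change was -0.34 (SE 0.092), and its range with each retina left out was -0.41 to -0.31.

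Amotl1, known as a junctional member of the family, was the second in level (chromosome 9, 14541966 to 14645056, minus strand, ENSMUSG00000013076). Its values were 11.7, 15.9 and 11.96 TPM in the controls and 17.9, 16.1 and 14.8 TPM in the Yap cKO retinas. Control YR613 lay among the Yap cKO retinas, so the groups overlapped. Its log2 fold change was 0.25 (SE 0.11) and became 0.11 with a correction for gene length. With each retina left out it ranged from 0.18 to 0.38, the highest value being that without control YR613.

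Amot, the founding angiomotin, lies on the X chromosome (145446425 to 145505181, minus strand, ENSMUSG00000041688) and was the least abundant member in the controls. It was at 2.53, 3.79 and 3.28 TPM in the controls and at 4.53, 4.46 and 2.87 TPM in the Yap cKO retinas. The groups overlapped, with the female Yap cKO YR714 below 2 of the controls. The log2 fold change was 0.25 (SE 0.19), 0.14 with a correction for gene length and 0.28 with sex as a covariate. It was 0.12 without control YR612, 0.15 without either of the Yap cKO retinas YR711 and YR713, and 0.42 without Yap cKO YR714.

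The summed level of the angiomotin genes was 38.3, 42.0 and 40.5 TPM in the controls and 41.2, 39.7 and 38.5 TPM in the Yap cKO retinas. These sums overlapped. No test was made of the shares of the family members. Amotl2 took 59.5 ± 5.37% of the sum in the controls and 49.3 ± 4.36% in the Yap cKO retinas (SD, n = 3 each). Amotl1 took 32.6 ± 4.44% and 40.8 ± 2.498%, and Amot 7.90 ± 1.22% and 9.90 ± 2.10%. The share of Amotl2 overlapped between the groups in 1 retina of each, at 62.8, 53.3 and 62.3% in the controls and 45.7, 48.2 and 54.2% in the Yap cKO retinas. That of Amotl1 did not overlap, with 37.7% in control YR613 and 38.4% in Yap cKO YR714 as the nearest values. The level of Amotl1 itself did overlap, and its share also depends on the lower Amotl2 in the sum.

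**Figure D3:**
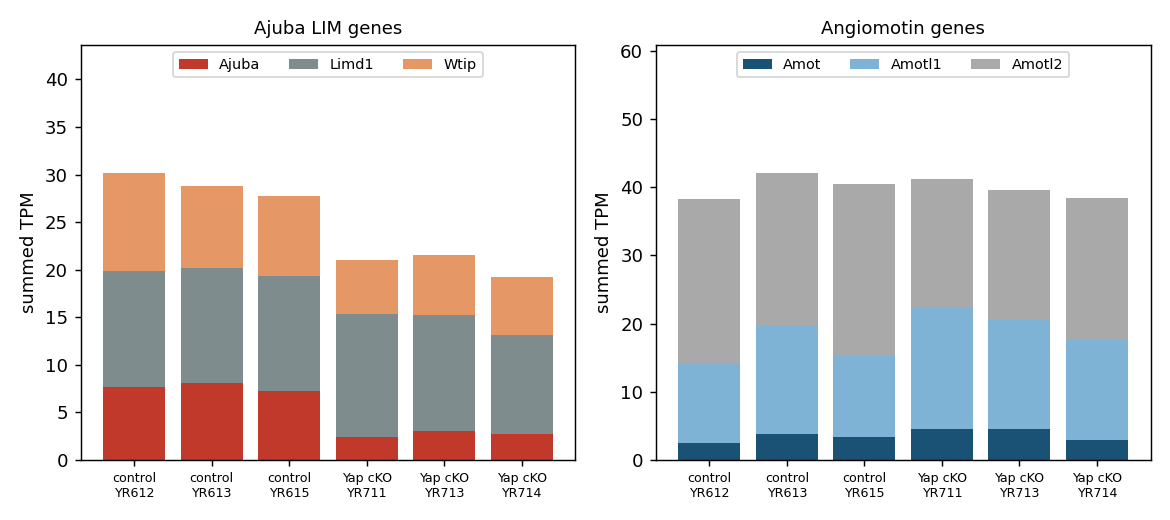
Summed TPM of the Ajuba LIM genes (left) and the angiomotin genes (right) in each of the 3 control and 3 Yap cKO retinas, divided by gene; both axes start at 0. The Ajuba LIM sum is 27.7 to 30.1 TPM in the controls and 19.3 to 21.5 TPM in the Yap cKO retinas, and the angiomotin sums overlap at 38.3 to 42.0 and 38.5 to 41.2 TPM.

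Of the upstream scaffolds, Nf2, the neurofibromatosis type 2 tumour suppressor that recruits LATS to the membrane, was the most abundant of the 10 genes (chromosome 11, 4765845 to 4849536, minus strand, ENSMUSG00000009073). It was at 55.2, 64.8 and 52.8 TPM in the controls and at 71.8, 70.9 and 66.4 TPM in the Yap cKO retinas. Every Yap cKO retina was above every control, with a gap of under 2 TPM between control YR613 and Yap cKO YR714. On the log2 scale the difference was 0.22 (SE 0.084), and 0.15 with a correction for gene length.

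Wwc1, the KIBRA scaffold that works with NF2, was lower (chromosome 11, 35838400 to 35980527, minus strand, ENSMUSG00000018849). Its level was 9.41, 9.41 and 9.42 TPM in the controls and 6.57, 8.39 and 7.85 TPM in the Yap cKO retinas. The controls were nearly equal, with an SD of 0.00302 TPM, and all Yap cKO retinas lay below them. With 308, 320 and 359 reads behind the control values, this SD is smaller than counting alone would give and is no measure of precision. Its log2 fold change was -0.36 (SE 0.12), with a range of -0.44 to -0.27 when each retina was left out.

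Sav1, the scaffold of the STK kinases, was at 19.3, 22.6 and 20.7 TPM in the controls and at 21.8, 20.04 and 18.5 TPM in the Yap cKO retinas (chromosome 12, 69965012 to 69987002, minus strand, ENSMUSG00000021067). The groups intermingled, and the log2 fold change was -0.11 (SE 0.087), with a range of -0.17, without Yap cKO YR711, to -0.07, without control YR613 or Yap cKO YR714. Its exons overlap those of Atl1 on the opposite strand over 1336 bases, and the counting used strand.

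Vgll4, whose protein competes with YAP for the TEAD factors, was at 11.7, 11.5 and 11.96 TPM in the controls and at 11.9, 13.5 and 11.3 TPM in the Yap cKO retinas (chromosome 6, 114860628 to 114969994, minus strand, ENSMUSG00000030315). The Yap cKO retinas enclosed the control values. For Vgll4 the log2 fold change was 0.01 (SE 0.10) and changed sign with the scaling, to -0.04 under upper quartile size factors and -0.03 with a correction for gene length.

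**Figure D4:**
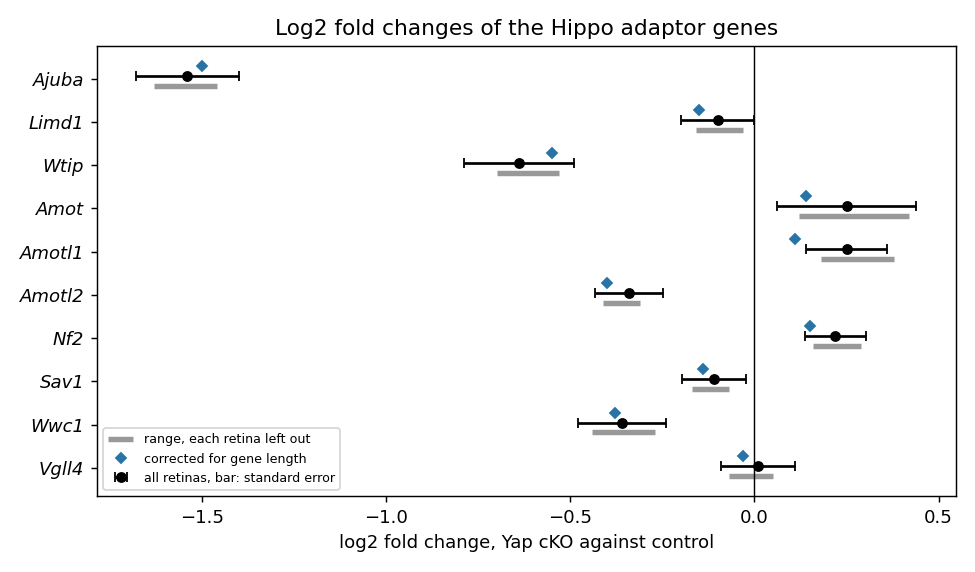
Log2 fold change of each gene, Yap cKO against control retinas; black points with bars are the values over all 6 retinas with their standard errors, grey bands the range when each retina is left out in turn, and blue diamonds the values corrected for gene length. Ajuba is at -1.54 and Wtip at -0.64, and the other 8 genes lie between -0.36 and 0.25.

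The order of the levels in the control retinas ran from Nf2 (57.6 ± 6.36 TPM) through Amotl2 (23.9 ± 1.42), Sav1 (20.9 ± 1.66), Amotl1 (13.2 ± 2.32), Limd1 (12.2 ± 0.0984), Vgll4 (11.7 ± 0.238), Wwc1 (9.41 ± 0.00302), Wtip (9.07 ± 1.01) and Ajuba (7.65 ± 0.459) to Amot (3.20 ± 0.634 TPM, SD, n = 3 each). The ranges over retinas overlapped between the neighbours Amotl2 and Sav1, Amotl1 and Limd1, and Wwc1 and Wtip, whose order is not resolved. The range of Amotl1, 11.7 to 15.9 TPM, also overlapped that of Vgll4, 11.5 to 11.96 TPM, so the order of these genes is not resolved either. In the Yap cKO retinas Ajuba stood last at 2.72 ± 0.327 TPM, with a range that overlapped that of Amot at 3.95 ± 0.936 TPM (SD, n = 3 each). There, Sav1 and Amotl2, and Vgll4 and Limd1, could not be ordered either.

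All 10 genes passed the low-count filter. A gene was called where its adjusted p did not exceed 0.05, it differed by 1.5-fold or more and its mean reached 5 TPM in 1 of the groups. These criteria were met by 1 of the 10 genes, Ajuba, which was lower. Among all 16575 genes tested, 132 or 0.796% were called, and 97 or 0.585% were called lower. This split rests on the libraries used: without control YR613, 164 genes were called lower and 352 higher, against 97 and 35 with all retinas. The values of 5 genes did not overlap between the groups, 4 of them lower (Ajuba, Wtip, Amotl2 and Wwc1) and 1 higher (Nf2). Over all genes tested, 24.3% did not overlap, 9.12% being lower and 15.2% higher. Since the genes were selected on this contrast, nothing is read from these counts. The median log2 fold change of the 10 genes was -0.10, beside 0.00 over all genes tested.

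Relative expression moved with gene length in the libraries, and a correction for length changed some of the smaller differences. It moved those of Amotl1 and Amot towards 0, while Amotl2 went from -0.34 to -0.40 and Wwc1 from -0.36 to -0.38. The Spearman correlation, across genes, of relative expression with exonic length was -0.413, 0.172 and -0.405 in the controls and 0.396, 0.385 and -0.151 in the Yap cKO retinas. That of the log2 fold change itself with length was 0.391, so longer genes tended to higher values in the Yap cKO retinas. Amotl1 and Amot, with 10064 and 8402 bases of exon the longest of the 10 genes, were those whose log2 fold changes moved most under the correction, from 0.25 to 0.11 and from 0.25 to 0.14. Ajuba, with 3646 bases, went from -1.54 to -1.50.

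Ajuba, Wtip and Amotl2 were each compared with the 11993 tested genes of at least 5 TPM by the Pearson correlation of log2(TPM + 1) over the 6 retinas. The 6 points are the same libraries for every gene, and the values describe likeness of pattern with no test. The groups did not overlap for Ajuba, Wtip and Amotl2, so a high r can mainly restate the difference between the groups. Most like Ajuba were Ogn, coding for the matrix proteoglycan osteoglycin (r = 0.997), Idh2, the mitochondrial isocitrate dehydrogenase (r = 0.994), and Aldh1l1, a folate enzyme known as an astrocyte marker (r = 0.994). Ogn went from 10.1, 12.5 and 9.08 TPM in the controls to 1.28, 2.42 and 1.54 TPM in the Yap cKO retinas. Its order among the retinas was that of Ajuba, with YR613 highest among the controls and YR713 among the Yap cKO retinas. Most like Wtip were Fgfr1, a receptor of fibroblast growth factors (r = 0.998), Gm15920 (r = 0.993) and Slc2a1, the glucose transporter GLUT1 (r = 0.990). Fgfr1 was at 15.4, 13.6 and 13.1 TPM in the controls and at 9.45, 10.2 and 10.1 TPM in the Yap cKO retinas. Most like Amotl2 were Nelfcd, a subunit of the negative elongation factor (r = 0.998), the sorting nexin Snx17 (r = 0.997) and the dehydrogenase Dhrs7 (r = 0.997).

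The other genes of the pathway were taken from textbook lists. Of 73 genes in 7 lists 69 were tested, of which 40 had a log2 fold change above 0 and 29 below, and 3 were called, all lower: Yap1, Trip6 and Ccn2. Over all genes tested 0.796% were called, 0.585% lower, and 21.4% had an unadjusted p under 0.05, and the counts of each list below stand beside these shares. The lists were chosen with earlier results of these data known, so nothing particular to a list is read from its counts. Among the 11 tested genes of the Hippo core (YAP, TAZ, the TEAD factors, and the kinases with MOB1), Yap1 was the gene called, and the median log2 fold change was -0.03. Tead4 was not tested for low counts. The most abundant core genes not called were Lats1, at 36.0 ± 6.69 and 45.2 ± 5.44 TPM in control and Yap cKO retinas (SD, n = 3 each, log2 fold change 0.27, SE 0.12), and Mob1a, a LATS coactivator, at 38.2 ± 0.480 and 37.3 ± 3.57 TPM (-0.10, SE 0.081).

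The LIM genes nearest to the Ajuba family are those of the zyxin family, proteins of focal adhesions and actin filaments. Of the 4 tested, Trip6, whose protein is known to bind and restrain LATS much as Ajuba does, was called. It fell from 19.3, 16.3 and 17.4 TPM in the controls to 10.4, 10.9 and 11.4 TPM in the Yap cKO retinas. The groups did not overlap, and the log2 fold change was -0.75 (SE 0.13), with an adjusted p of 0.0253 by the quasi-likelihood test of edgeR. This call was lost without either of the controls YR612 and YR615 and without either of the Yap cKO retinas YR711 and YR713, the log2 fold change then lying between -0.77 and -0.66. Fblim1, the gene of migfilin, had a log2 fold change of -0.93 (SE 0.22) and groups that did not overlap, but was not called (adjusted p of 0.0787 by the same test). An unadjusted p under 0.05 was reached by 3 of the 4 genes. Of the uncalled genes with the highest levels, Zyx was at 21.1 ± 0.687 and 21.5 ± 1.58 TPM and Lpp at 1.17 ± 0.166 and 1.76 ± 0.502 TPM in control and Yap cKO retinas (SD, n = 3 each).

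The angiomotin turnover list holds the tankyrases, the ubiquitin ligases RNF146, NEDD4, NEDD4L and ITCH, and the deubiquitinase USP9X, which are known to set angiomotin protein levels. All 7 genes had a log2 fold change above 0, with a median of 0.25, but 5 of 7 did so with a correction for gene length, where the median was 0.05. None was called by the quasi-likelihood test of edgeR or by DESeq2, and 5 had an unadjusted p under 0.05. Without control YR613, Usp9x was called. Nedd4 was at 231 ± 30.5 and 286 ± 33.9 TPM and Tnks2 at 87.2 ± 10.98 and 99.4 ± 13.8 TPM in control and Yap cKO retinas (SD, n = 3 each).

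The 24 other Hippo adaptors, among them the Crumbs and tight junction proteins, the TAO kinases and the STRIPAK subunits, included 0 called genes by the quasi-likelihood test of edgeR and 0 by DESeq2, and 5 genes had an unadjusted p under 0.05. Fat4 was called when control YR613 or Yap cKO YR714 was left out. Their log2 fold changes were above 0 for 17 genes and below for 7 (median 0.08), a split that turned to 10 and 14 with a correction for gene length. Crb1, the apical polarity gene of Müller glia and photoreceptors, was at 135 ± 20.1 and 154 ± 23.5 TPM in control and Yap cKO retinas (SD, n = 3 each).

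The alpha catenin junction, to which Ajuba proteins are recruited under tension, was represented by 4 genes, of which 0 were called by either tool and 2 had an unadjusted p under 0.05. Ctnnb1 was at 358 ± 12.6 and 366 ± 19.7 TPM and Ctnna1, coding for alpha catenin itself, at 86.5 ± 6.07 and 79.1 ± 3.50 TPM in control and Yap cKO retinas (SD, n = 3 each). Of the other Vgll genes, Vgll1 and Vgll2 were listed at 0 reads in all 6 retinas. Vgll3 was at 1.93 ± 0.387 and 1.996 ± 0.281 TPM (SD, n = 3 each), with a log2 fold change of -0.01, an unadjusted p above 0.05 and no call by DESeq2.

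Amotl2 was set beside 21 other genes known as YAP and TAZ targets, of which 20 were tested and Ankrd1 was not. Of these, 10 were above 0 and 10 below, with a median log2 fold change of 0.00. An unadjusted p under 0.05 was reached by 11 of the 20, beside 21.4% of all genes tested. The values of 10 did not overlap between the groups, 6 of them lower and 4 higher, beside 24.3% of all genes, 9.12% lower and 15.2% higher. The called gene was Ccn2 (connective tissue growth factor), at 55.9, 38.7 and 72.4 TPM in the controls and at 16.6, 16.1 and 18.8 TPM in the Yap cKO retinas. The groups did not overlap, although the controls spread widely, and the log2 fold change was -1.76 (SE 0.21), with an adjusted p of 0.00479 by the quasi-likelihood test of edgeR. Ccn1 was called in addition by DESeq2, and by the quasi-likelihood test with control YR613 or Yap cKO YR714 left out. The most abundant targets not called were Nt5e, an ectonucleotidase, at 79.2 ± 5.23 and 80.5 ± 4.49 TPM, and Gadd45a, a stress gene, at 57.8 ± 6.07 and 78.0 ± 15.2 TPM in control and Yap cKO retinas (SD, n = 3 each).

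**Figure D5:**
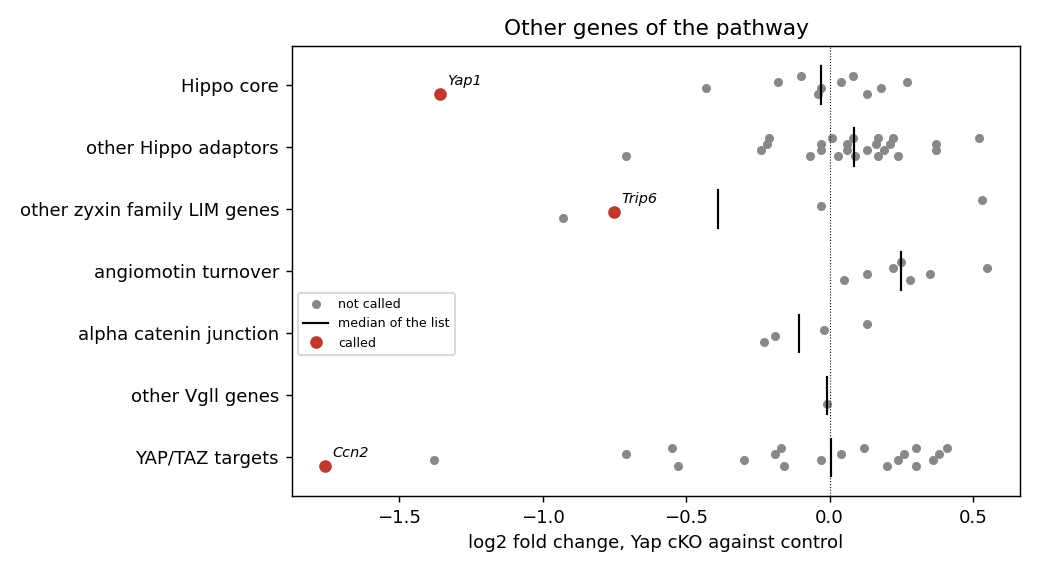
Log2 fold change, Yap cKO against control retinas, of the tested genes of 7 lists of other pathway genes; each point is 1 gene, black bars are list medians, and called genes are red and named. Yap1 (-1.36), Trip6 (-0.75) and Ccn2 (-1.76) are the called genes, and the list medians lie between -0.39 and 0.25.

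The tissue label was checked against marker lists. The Müller glia list, led by Glul, summed to 6864, 7178 and 7123 TPM in the controls and 6870, 6293 and 6346 TPM in the Yap cKO retinas. None of its 12 genes was called by the quasi-likelihood test of edgeR or by DESeq2, and 5 had an unadjusted p under 0.05. Genes of lens and of cornea and skin were near 0: the lens list, led by Cryaa, summed to 18.2 TPM in control YR615 and at most 4.21 TPM elsewhere, with Lim2 at 0 throughout, and the cornea and skin list, led by Krt15, to at most 2.19 TPM.

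Genes were called in the pigment cell, ciliary body and iris, and astrocyte lists, and the retinal pigment epithelium list was lower without a call. The pigment cell list, led by Dct, summed to 78.5, 71.2 and 74.1 TPM in the controls and to 17.2, 48.3 and 26.6 TPM in the Yap cKO retinas, with all 6 genes lower and Pmel called, a call that was lost when YR612, YR615 or YR711 was left out. DESeq2 called 2 genes of this list and the likelihood ratio test 3. The retinal pigment epithelium list, led by Rlbp1 (shared with Müller glia), summed to 1562, 1654 and 1651 TPM in the controls and 976, 1089 and 1494 TPM in the Yap cKO retinas, with all 7 genes lower and 0 called by the quasi-likelihood test of edgeR or by DESeq2 (2 with an unadjusted p under 0.05). Without Yap cKO YR714, 5 of them were called. Rlbp1 made up much of the list's sum, at 908, 933 and 967 TPM in the controls and 775, 718 and 789 TPM in the Yap cKO retinas. In Yap cKO YR714, Lrat (19.1 TPM), Rdh5 (37.5) and Rgr (110) lay above every control, and Ttr (469) lay within the controls. Rpe65 (68.6 TPM), Best1 (0.965) and Rlbp1 lay below every control there, so the lower sum of YR714 does not hold for all of the list. The ciliary body and iris list, led by Aqp1, summed to 321, 308 and 323 TPM in the controls and 280, 355 and 321 TPM in the Yap cKO retinas. Aqp1 (log2 fold change 0.29) carried this sum, and without it the list summed to 97.5, 81.1 and 84.8 TPM in the controls and 17.9, 38.6 and 24.4 TPM in the Yap cKO retinas. Of its 5 tested genes 4 were lower, with a median of -1.18. Optc and Slc26a4 were called lower, with log2 fold changes of -3.41 and -5.04, while Bmp4 (-1.18) was called by DESeq2 and Wfdc1 (-0.43) was not called. Of the 4 genes of the astrocyte list, led by S100b, Aldh1l1 was called lower (-0.79), and the sums overlapped, at 111, 88.2 and 101 TPM in the controls and 86.5, 95.6 and 93.2 TPM in the Yap cKO retinas. The other astrocyte genes were not called, with log2 fold changes of 0.12 for S100b, 0.17 for Pax2 and -0.33 for Gfap. Beside these values, Ajuba was at 7.61, 8.12 and 7.21 TPM in the controls and 2.40, 3.06 and 2.69 TPM in the Yap cKO retinas. The part of these markers in the lower Ajuba, Wtip, Amotl2 and Wwc1 was not tested.

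For the other lists, no gene was called by the quasi-likelihood test of edgeR. An unadjusted p under 0.05 was reached by 6 bipolar, 4 horizontal, 3 amacrine, 2 microglial, 2 endothelial, 2 red blood cell, 2 lens, 1 cone, 1 pericyte, 1 fibroblast and 1 cornea and skin gene, and by 0 rod and 0 ganglion cell genes. Their most abundant genes were Opn1sw for cones, Gad1 for amacrine cells, Sept4 for horizontal cells, Nefl for ganglion cells, C1qb for microglia, Kdr for endothelial cells, Rgs5 for pericytes, Pdgfra for fibroblasts and Hbb-bs for red blood cells. The amacrine sums were higher in every Yap cKO retina (851, 794 and 828 TPM) than in the controls (665, 738 and 741 TPM), and the horizontal cell sums were lower (235, 201 and 227 against 243, 252 and 261 TPM). The horizontal cell sum was carried by Sept4 and Calb1, with log2 fold changes of -0.32 and -0.23, while the less abundant Onecut1 and Lhx1 had values of 0.99 and 0.42, so the list held 2 genes in each direction and none called. DESeq2 called Trpm1 of the bipolar list and Hbb-bs. Col1a2, a collagen gene of the fibroblast list, was at 3.09, 3.11 and 4.37 TPM in the controls and 0.794, 1.06 and 0.577 TPM in the Yap cKO retinas. Its log2 fold change was -2.16 (SE 0.22), with an adjusted p of 0.00236 by the quasi-likelihood test of edgeR, and it was uncalled only for the minimum of 5 TPM. The fibroblast sums were 13.02, 10.8 and 13.1 TPM in the controls and 8.98, 10.8 and 7.80 TPM in the Yap cKO retinas. Another gene, of the bipolar list, passed the adjusted p and was uncalled for the fold change minimum. The part of these lists in the differences of the Hippo adaptors was not tested.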

How the data were processed

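The deposited table held whole-number read counts per gene, which the authors made from paired-end reads of 40 bases with STAR 2.7.3a and featureCounts 1.6.2 (reversely stranded, exons summed by gene) on GRCm38. The file header names annotation release 98. Replicates are independent biological samples per the study's methods. The 10 genes and all gene lists were chosen with earlier results of these data known.

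TPM was computed from counts and the deposited exonic lengths. Counts were tested with edgeR 4.0.16 (R 4.3.3): low counts filtered by group, TMM normalization (factors 0.986 to 1.02), quasi-likelihood test without covariates, and Benjamini-Hochberg adjustment over 16575 genes. The procedure was tested on simulated data, but no outcome of that is given or relied on here. With counts, precision follows the number of reads, and the common dispersion was 0.0126. Named were all 10 genes, Yap1, the called genes of each pathway list with its 2 most abundant uncalled genes, 3 genes most like Ajuba, Wtip and Amotl2, and the most abundant gene of each marker list. Genes named beyond this rule (Ccn1, Atl1, Tead4, Ankrd1, Lim2, Vgll1, Vgll2, Vgll3, Trpm1, Usp9x, Fat4, Calb1, Onecut1, Lhx1, Pax2, Gfap, Col1a2, Fblim1, Bmp4, Wfdc1, Xist, Ddx3y and called markers) were named after their values were seen. The same holds for Lrat, Rdh5, Rgr, Ttr, Rpe65 and Best1. Alternatives were other size factors, DESeq2 1.42.0, edgeR's likelihood ratio test, limma-voom (limma 3.58.1), no low-count filter, a correction for gene length (loess, span 0.3), sex as a covariate, no TPM or fold change minimum, and leaving out each retina. A few genes that this rule names are not reported here. Protein sequences were not used here.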

Additional observations from a re-analysis of the deposited data

How the results depend on the processing

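No paired analysis was possible because the groups share no replicate numbers. All 160 values of the log2 fold changes of the 10 genes, under 16 alternatives each, stayed within 1 SD of the retinas. Leaving out a retina can hardly move a group mean by that much, and a change of test or filter barely alters a log2 fold change. The outcome was thus largely fixed in advance, and nothing is read from it. Ajuba met the call criteria in each of 18 alternatives, of which the 2 that drop a minimum cannot lose a call, and since it was selected on this contrast this is no support. Wtip met them under DESeq2, the likelihood ratio test, no low-count filter, and without control YR613 or Yap cKO YR714, so 2 of the 10 genes met them there in place of 1, and leaving out a retina gave 1 to 2. Over all genes, 132 calls became 263 with DESeq2, 291 with the likelihood ratio test, 245 when that test had the length correction, and 369 with no low-count filter. Leaving out a retina gave 38 to 516 calls: 40 without control YR612, 516 without control YR613, 38 without control YR615, 68 without Yap cKO YR713 and 448 without Yap cKO YR714. For the pathway lists, 3 calls became 2 to 6 when a retina was left out, with 6 without control YR613 or Yap cKO YR714. The causes were not tested. Read numbers were lowest for Ajuba, with 56 to 203 reads a retina, and Wtip, with 86 to 161, and the standard error was largest for Amot, at 0.19.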
